A study of Mus musculus with 19 samples.

Results

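Clec4b2, Clec4b1, Clec4a1, Clec4a2, Clec4a3, Clec4d, Clec4e, Clec4n, Clec7a and Clec12a encode C-type lectin receptors of myeloid cells, and all 10 lie on mouse chromosome 6. They were taken by symbol from a table of 34432 genes measured by RNA sequencing of whole bone marrow from 8-week-old C57/BL6 mice. All 10 were found, and all 10 passed the filter on low values that 13976 genes passed. Clec4b2 stood apart: its 4 libraries from marrow labelled as lacking both Cdk8 and Cdk19 were each higher than the other 15 libraries, while for each of the remaining 9 receptor genes the values of these 4 libraries overlapped those of at least 1 other genotype. The list was drawn up with earlier results of these data in view, and which values chose its members is not recorded. Every comparison below is therefore a description of these libraries, and its adjusted p-values place a gene within the fit over all genes without being independent support.

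Mediator carries signals from transcription factors to RNA polymerase II, and its detachable kinase module contains either CDK8 or the closely related CDK19. Libraries came from wild-type mice (WT, n = 3), from mice carrying only the Vav-iCre transgene (VAV, n = 4), from Cdk8 flox/flox Vav-iCre mice (CDK8KO, n = 4), from Cdk19 null mice (CDK19KO, n = 4) and from Cdk8 flox/flox Vav-iCre Cdk19 null mice (DKO, n = 4). The Vav promoter drives Cre in blood cells, so Cdk8 deletion is directed to blood cells and not to stroma or bone, whereas the Cdk19 null allele is present in all cells. VAV, CDK8KO and DKO share the transgene, which WT and CDK19KO do not carry, so DKO differs from CDK19KO by Vav-iCre as well as by Cdk8. VAV is the control for CDK8KO and DKO, and WT is the control for CDK19KO. The labels do not say that libraries of a genotype came from separate animals, so p-values measure the spread between libraries, which may be partly technical.

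C-type lectin receptors let macrophages, monocytes, neutrophils and dendritic cells bind sugars and glycolipids of microbes and products of damaged cells. Activating receptors signal through an immunoreceptor tyrosine-based activation motif, either their own or that of the partner chain FcRgamma (encoded by Fcer1g), to the kinase Syk and the adaptor Card9, and from there to NF-kappaB and NFAT. Inhibitory receptors carry an inhibitory tyrosine motif that recruits the phosphatases SHP-1 and SHP-2. In this family, Clec4b1 encodes DCAR, an FcRgamma-coupled activating receptor, and Clec4b2 is its close paralogue. Clec4a2 encodes the inhibitory receptor DCIR, and Clec4a1 and Clec4a3 are its relatives. Clec4d (MCL), Clec4e (Mincle) and Clec4n (Dectin-2) are FcRgamma-coupled sensors of mycobacterial and fungal glycolipids and mannans, Clec7a encodes the beta-glucan receptor Dectin-1, and Clec12a encodes the inhibitory receptor MICL.

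Libraries held 14881701 to 33010241 reads assigned to genes. The Cdk19 transcript fell in CDK19KO against WT (log2 fold change -1.53 ± 0.12, SE) and in DKO against VAV (-1.63 ± 0.11), both with adjusted p of 9.85e-07 or less in limma. Cdk8 differed by 0.02 ± 0.17 in CDK8KO against VAV (adjusted p = 0.976, limma), which says nothing of whether floxed exons were removed, because reads were summed over all exons. The Cdk8 status of a library is therefore known from its label alone. Sums over marker lists, in RPM (reads scaled to the total of the library), ranged over all libraries from 12860 to 36618 for early granulocyte genes, from 19636 to 37663 for late neutrophil genes and from 7061 to 13835 for monocyte genes. The libraries labelled CDK19KO 4 and DKO 4 were rich in skeletal muscle transcripts (5899 and 1288 RPM, against at most 72.0 in the other 17). VAV 3 and CDK8KO 1 were rich in erythroid transcripts (32335 and 35801 RPM). Member results are given without these libraries where that changed a call.

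In GENCODE vM21 annotation of GRCm38, which is the mm10 assembly, 8 of the genes form 1 run on chromosome 6 in the order Clec4a1 (122921848 to 122934619), Clec4a3 (122952515 to 122969875), Clec4b1 (123049962 to 123071555), Clec4a2 (123106428 to 123143999), Clec4b2 (123172893 to 123204671), Clec4n (123229843 to 123247021), Clec4d (123262111 to 123275265) and Clec4e (123281789 to 123289870). Clec12a (129342691 to 129365303) and Clec7a (129461591 to 129472779) lie farther along the chromosome. Clec4e and Clec7a are on the minus strand and the others on the plus strand. The annotation classes Clec7a as a polymorphic pseudogene and the others as protein coding. In RPM divided by merged exon length in kilobases, averaged over 19 libraries, Clec12a was highest at 60.1, followed by Clec4a2 at 45.2, Clec7a at 42.2, Clec4d at 33.5, Clec4e at 27.5, Clec4a1 at 19.5, Clec4a3 at 14.0 and Clec4b2 at 12.6. Clec4b1 at 2.26 and Clec4n at 1.97 were the lowest. Neighbours in this order overlapped in their ranges over libraries, except Clec4b2, whose lowest library (6.42) lay above the highest of Clec4b1 (3.25).

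Some of these genes share stretches of sequence with each other or with other genes, which can move reads between them when reads are assigned to transcripts. Of the 31-base words in its annotated transcripts, Clec4b2 (ENSMUSG00000067767) shared 1.49% with any other gene, so most of its sequence was its own. Clec4b1 shared 19.03% of its words, Clec4a2 10.3% and Clec4a3 2.19%. Clec4a1, Clec4d and Clec4e shared none, and Clec4n, Clec12a and Clec7a shared 1.96%, 1.10% and 0.53%. Values for Clec4b1 and Clec4a2 are therefore less certain than the others.

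Promoter windows from RefSeq (GRCm38.p6) run from 250 bases before to 50 bases from the transcription start, and matched 9 of the 10 genes. The 3 printed here are shown because they belong to Clec4b2, the gene that differed in DKO, and to 2 of its neighbours in the run that did not, the paralogue Clec4b1 and Clec4a2. Capitals mark matches, on either strand, to a set of short motifs named in the next paragraph. The windows are chr6:123172773-123173072 for Clec4b2, chr6:123049712-123050011 for Clec4b1 and chr6:123122440-123122739 for Clec4a2, all on the plus strand. RefSeq places the starts of Clec4b2 and Clec4a2 at other bases than GENCODE does.
Clec4b2: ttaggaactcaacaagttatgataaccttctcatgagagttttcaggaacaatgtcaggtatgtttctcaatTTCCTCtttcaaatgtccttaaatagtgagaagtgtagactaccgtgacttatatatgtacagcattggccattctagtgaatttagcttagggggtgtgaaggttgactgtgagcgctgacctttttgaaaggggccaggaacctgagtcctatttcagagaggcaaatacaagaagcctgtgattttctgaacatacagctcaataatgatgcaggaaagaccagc
Clec4b1: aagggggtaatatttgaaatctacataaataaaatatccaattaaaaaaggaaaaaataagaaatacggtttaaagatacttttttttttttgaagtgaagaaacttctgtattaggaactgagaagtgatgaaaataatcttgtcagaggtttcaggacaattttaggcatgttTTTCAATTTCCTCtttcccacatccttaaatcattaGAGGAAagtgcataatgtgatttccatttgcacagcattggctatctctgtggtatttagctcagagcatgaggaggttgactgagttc
Clec4a2: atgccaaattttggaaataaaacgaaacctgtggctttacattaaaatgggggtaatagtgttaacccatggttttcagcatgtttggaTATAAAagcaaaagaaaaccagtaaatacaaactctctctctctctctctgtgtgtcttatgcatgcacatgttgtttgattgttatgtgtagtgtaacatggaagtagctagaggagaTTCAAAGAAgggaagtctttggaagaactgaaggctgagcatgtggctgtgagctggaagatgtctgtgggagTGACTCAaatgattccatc

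The window of Clec4b2 held 1 match, TTCCTC, the reverse complement of GAGGAA, a core recognised by the myeloid factor PU.1, beginning 178 bases before the start. GAGGAA was found in windows of 8 of the 9 matched genes (all but Clec4a2), and in 28.3% of the 32851 promoter windows of the table. Clec4b1 held it in both orientations, and its minus-strand copy overlaps a match to an interferon regulatory factor (IRF) motif, GAAA and again GAAA after 2 unspecified bases, found in 3.44% of windows and, among these genes, in Clec4b1 and Clec4d. Clec4a2 held a STAT motif, TTCNNNGAA (8.3% of windows, and no other member), an AP-1 motif, TGANTCA (7.81%, and also in Clec12a), and the letters of a TATA box, TATAAA (13.6%, and also in Clec4e and Clec7a). These letters began 161 bases before the start in Clec4a2 and 29 before it in Clec4e. In Clec7a they were in reverse orientation, beginning at base 43 counted from the start on. The C/EBP motif TTGCNNAA (10.8% of windows) was matched in Clec12a and Clec4e. The windows of Clec4b1 and Clec4b2 could be aligned with 142 identical bases in 191 columns (74.3%), and the PU.1 core of Clec4b2 aligned with the minus-strand core of Clec4b1. The IRF match of Clec4b1 was not among the matches in Clec4b2. A match is a string of letters, not a measured binding site.

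Clec4b2 was measured at normalized counts of 565, 736, 594 and 699.9 in DKO. The VAV libraries gave 255, 254, 179.5 and 248, the CDK8KO libraries 183, 267, 272 and 176, the CDK19KO libraries 185, 263, 286 and 282, and the WT libraries 330, 265 and 293. The lowest DKO library thus exceeded the highest of the other 15. The other 4 genotypes overlapped each other, except that every VAV library was below every WT library, a separation not counted over all genes. Means were 649 ± 82.1 (SD, n = 4) in DKO, 234 ± 36.5 (n = 4) in VAV, 225 ± 52.3 (n = 4) in CDK8KO, 254 ± 46.9 (n = 4) in CDK19KO and 296 ± 32.7 (n = 3) in WT. All 4 DKO libraries lay above the 4 VAV libraries in 4.16% of tested genes, above the other 15 in 0.851% (119 of 13976), and below the other 15 in 0.572% (80). In whole marrow, more cells with the transcript and more transcript per cell cannot be told apart.

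**Figure D1:**
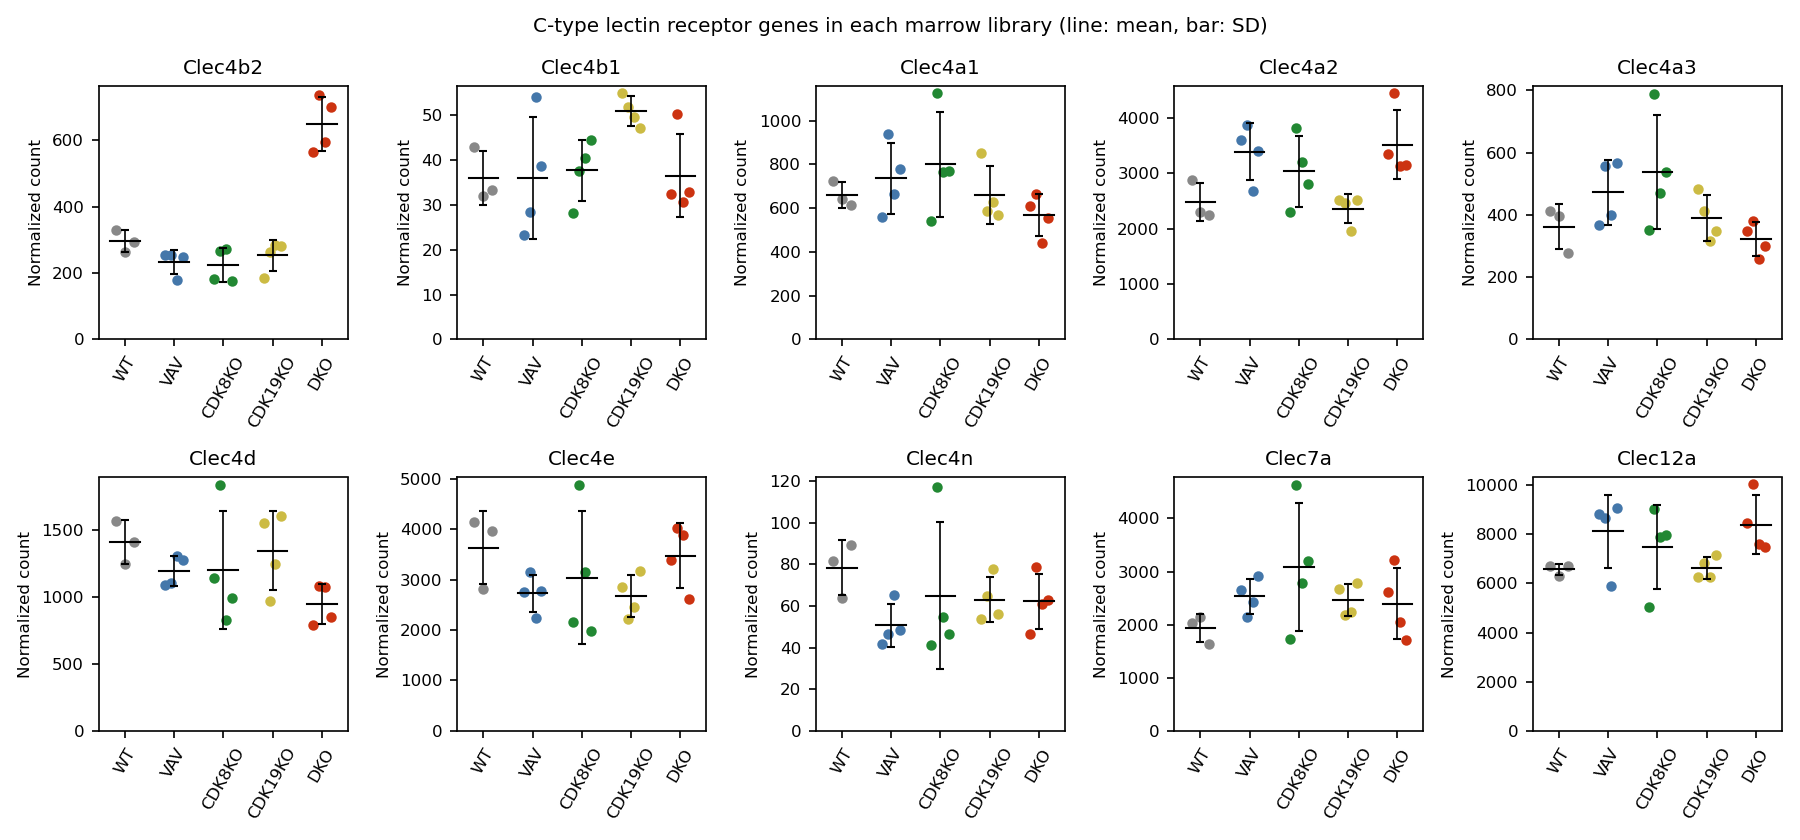
Normalized counts (vertical axes, each starting at 0) of the 10 receptor genes in 19 marrow libraries, grouped by genotype, with a point for each library, a line for the mean and a bar for the SD. The 4 DKO libraries of Clec4b2 sit between 565 and 736, above all others (176 to 330); in the other panels DKO overlaps at least 1 other genotype.

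On the log2(normalized count + 1) scale Clec4b2 was higher in DKO by 1.47 ± 0.18 (SE) against VAV, which is 2.78-fold, by 1.55 ± 0.18 against CDK8KO (2.92-fold) and by 1.36 ± 0.18 against CDK19KO (2.57-fold). These 3 comparisons share the DKO libraries. The adjusted p-values in limma, over all 13976 genes, were 0.000259, 0.000126 and 0.000349, and by p the gene ranked 10, 10 and 23. Clec4b2 was not called in a single knockout: it differed by -0.07 ± 0.18 in CDK8KO against VAV (adjusted p = 0.902, limma; 95% interval -0.46 to 0.31) and by -0.23 ± 0.20 in CDK19KO against WT (adjusted p = 1, limma; interval -0.65 to 0.18). The interaction, which is the difference between Cdk19 loss with and without Cdk8 deletion, (DKO minus CDK8KO) minus (CDK19KO minus WT), was 1.78 ± 0.27 for Clec4b2 (adjusted p = 0.00471, rank 8, limma). DKO and CDK8KO carry Vav-iCre and CDK19KO and WT do not, so in this interaction Cdk8 deletion and the transgene cannot be told apart. VAV was below WT by an amount that did not pass (-0.35 ± 0.20, adjusted p = 0.421, limma). With WT in place of VAV as the control, the difference of DKO was 1.13, also past the threshold.

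Clec4b2 was the only member that passed an adjusted p under 0.05 in limma in each of the 3 DKO comparisons and in the interaction. It was 1 of 10, as higher, in DKO against VAV, where 1.52% of all genes passed, 0.83% as higher and 0.694% as lower. It was 1 of 10 in DKO against CDK8KO, where 1.7% passed (1.05% higher, 0.651% lower), and 1 of 10 in DKO against CDK19KO, where 2% passed (1.34% higher, 0.658% lower). In the interaction it was 1 of 10, where 0.15% passed (0.093% higher, 0.0572% lower). The members were 6 higher and 4 lower in DKO against VAV, and the median log2 fold change of the 10 stayed near that of all genes, at 0.05 against -0.01 in DKO against VAV. No member passed in CDK8KO against VAV (0% of all genes), in CDK19KO against WT (0.0215%) or in VAV against WT (0.093%, of which 0.0716% higher and 0.0215% lower), in limma, edgeR or DESeq2. At an unadjusted p under 0.05 the members numbered 0, 0 and 1 in those 3 comparisons, where 8.31%, 3.07% and 14.8% of all genes reached it, and 2 in DKO against VAV, 3 against CDK8KO and 3 against CDK19KO, where 15.7%, 16.1% and 15.6% of all genes reached it. The count of members that passed in DKO rested on no single library: it was 1 whichever library was left out.

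**Figure D2:**
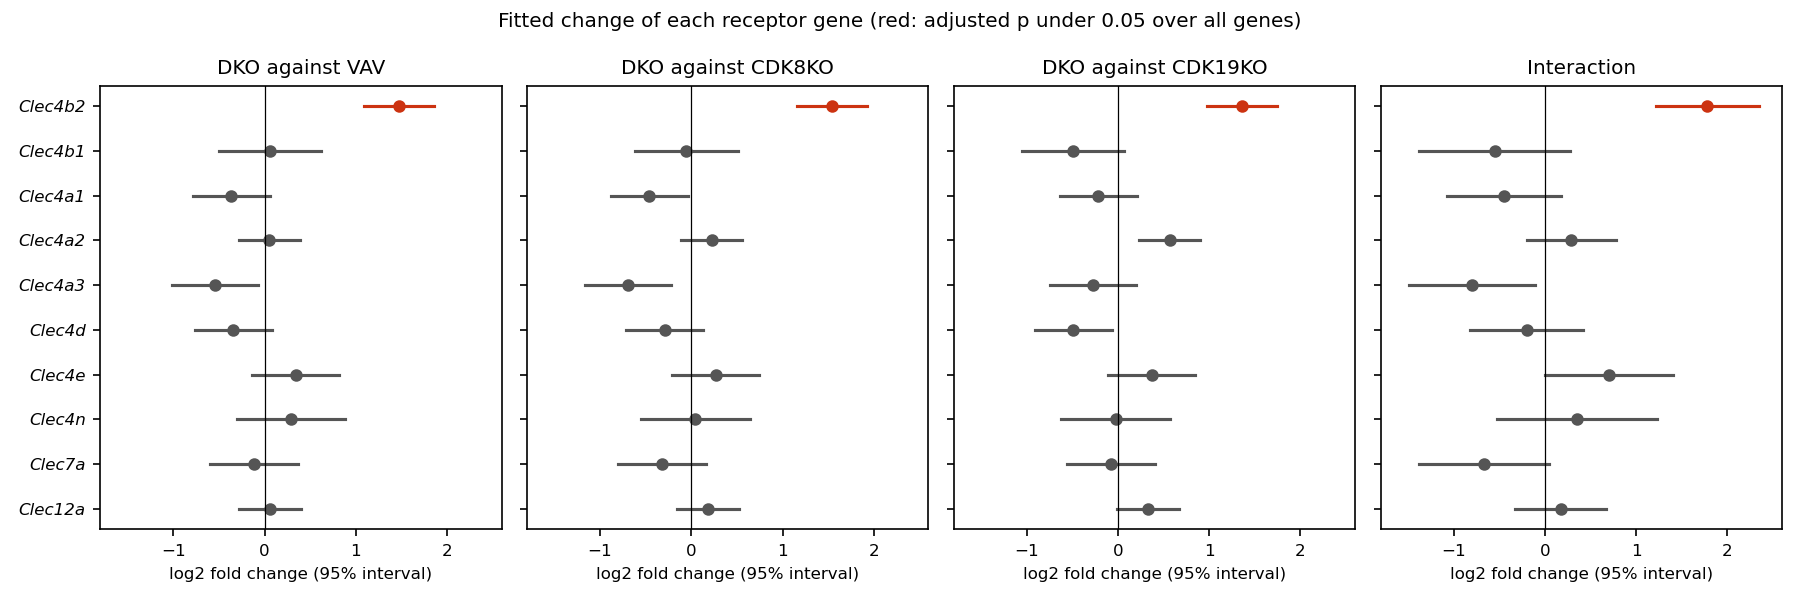
Fitted log2 fold change (horizontal axes, points, with 95% intervals as lines) of each receptor gene in DKO against VAV, CDK8KO and CDK19KO and in the interaction of Cdk8 and Cdk19 loss; red marks an adjusted p under 0.05 over all genes. Clec4b2, at 1.47, 1.55, 1.36 and 1.78, is the red point of each panel.

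Clec4b1, the DCAR gene and paralogue of Clec4b2, was expressed at a low level and did not pass in any comparison in limma, edgeR or DESeq2. Its normalized counts were 32.4, 50.2, 30.5 and 33.0 in DKO and 23.2, 28.4, 54.0 and 38.6 in VAV, so the groups overlapped fully. CDK19KO libraries were the tightest and, on average, the highest, at 54.9, 51.8, 49.6 and 47.1 (mean 50.8 ± 3.32, SD, n = 4, against 36.0 ± 6.03 in WT, n = 3), a difference of 0.50 ± 0.29 that did not pass (adjusted p = 1, limma). In DKO against VAV it differed by 0.06 ± 0.27, with a 95% interval of -0.50 to 0.62 that does not reach the 1.47 of Clec4b2.

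None of the 3 genes of the DCIR group passed in DKO against VAV in limma, edgeR or DESeq2. Clec4a2, for the inhibitory receptor DCIR, gave 3352, 4457, 3135 and 3150.5 in DKO, 3613, 3880.3, 2685 and 3404 in VAV, 2303, 3816, 3213 and 2814 in CDK8KO, 2517, 2466, 1967 and 2513 in CDK19KO and 2886, 2311 and 2258 in WT. Every DKO library was above every CDK19KO and WT library but overlapped VAV and CDK8KO, the other 2 genotypes with Vav-iCre. How many of all tested genes show such a separation was not counted. Against CDK19KO the difference was 0.57 ± 0.16, or 1.48-fold, and did not pass in limma (adjusted p = 0.0746). It passed in 4 of the 21 alternatives tried, among them DESeq2, and without VAV 3 and CDK8KO 1. VAV was above WT by 0.45 ± 0.17, which did not pass with all libraries (adjusted p = 0.243, limma) and did without VAV 3 and CDK8KO 1 (adjusted p = 0.0354, limma).

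Clec4a1 and Clec4a3, the relatives of DCIR at the start of the run, were lowest on average in DKO. Clec4a3 averaged 322 ± 54.4 (SD, n = 4) in DKO, with libraries at 349, 382, 258 and 299.8, against 473 ± 105 in VAV (367, 558, 401 and 568) and 537 ± 184 in CDK8KO (351, 788, 472 and 539). DKO and VAV overlapped by a single library on each side. Clec4a3 differed by -0.54 ± 0.23 against VAV (adjusted p = 0.251, limma) and by -0.69 ± 0.23 against CDK8KO (adjusted p = 0.13, limma). The second passed in DESeq2, with an adjusted p of 0.0408. Clec4a1 averaged 568 ± 95.3 in DKO and 736 ± 161 in VAV (n = 4 each), a difference of -0.37 ± 0.20 that did not pass (adjusted p = 0.389, limma).

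Of the glycolipid and mannan sensors, none passed in any comparison in limma, edgeR or DESeq2. Clec4e, for Mincle, gave 3382, 4027, 3883 and 2605 in DKO and 2756, 3146, 2239 and 2766 in VAV, with overlap, and differed by 0.34 ± 0.23 (adjusted p = 0.485, limma). Clec4d, for MCL, its partner receptor, gave 789, 1078, 1072 and 851 in DKO, below the VAV libraries at 1089.8, 1100.4, 1305 and 1277. The groups of Clec4d did not overlap, as in 4.33% of all tested genes with DKO below VAV, but the difference of -0.34 ± 0.20 did not pass (adjusted p = 0.419, limma). Clec4e and Clec4d thus had opposite signs in DKO against VAV, but with WT as the control Clec4e differed by -0.06. Clec4n, for Dectin-2, was low at 62.3 ± 13.2 in DKO, 50.7 ± 10.2 in VAV (SD, n = 4 each) and 78.3 ± 13.2 in WT (n = 3), and differed by 0.29 ± 0.28 in DKO against VAV (adjusted p = 0.655, limma).

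Clec12a, for MICL, was the most abundant of the 10, with 8441, 10052, 7585 and 7466 normalized counts in DKO and 8818, 8658, 5905 and 9054 in VAV. CDK19KO and WT lay lower and close together, at 6631 ± 440 (SD, n = 4) and 6570 ± 227 (n = 3), and each of their libraries was below the lowest DKO library. The share of all genes with this separation was not counted. CDK8KO libraries ranged from 5034 to 9021. DKO against CDK19KO came to 0.33 ± 0.16 (adjusted p = 0.331, limma), and to an adjusted p of 0.0486 without VAV 3 and CDK8KO 1. VAV, which carries Vav-iCre as DKO does, was above WT by 0.28 ± 0.17 (adjusted p = 0.46, limma). Without the same libraries that adjusted p was 0.0273 in limma. Clec7a, for Dectin-1, gave 2621, 3213, 2045 and 1707 in DKO and 2653, 2144, 2422 and 2919 in VAV, a difference of -0.11 ± 0.23 with an interval of -0.59 to 0.37. CDK8KO 2 held the highest value of the 19 libraries for 6 genes (Clec4a1, Clec4a3, Clec4d, Clec4e, Clec4n and Clec7a), with Clec7a at 4623 and Clec4e at 4865. For these 6 genes CDK8KO had the widest spread of the 5 genotypes, with a coefficient of variation of 54.3% for Clec4n.

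Genes beside the receptors were read to see where in the region DKO differed. Of 30 genes within 200 kb of a member, 17 were tested, and 2 passed as higher in DKO against VAV, where 0.83% of all genes did. C3ar1, which encodes the receptor for the complement fragment C3a and lies 65687 bases from Clec4a1, gave 207, 306, 406 and 351 in DKO and 64.2, 123, 113 and 81.4 in VAV. Its lowest DKO library was above the highest of all others (147), as for Clec4b2. C3ar1 was 3.31-fold higher against VAV (1.73 ± 0.26, adjusted p = 0.00162, limma), and also higher against CDK8KO (1.83 ± 0.26, adjusted p = 0.000777) and CDK19KO (1.41 ± 0.26, adjusted p = 0.00691). Its interaction of 1.82 ± 0.39 did not pass (adjusted p = 0.0738, limma). Klrc1, for an inhibitory natural killer receptor within 200 kb of Clec7a, was 2.87-fold higher (adjusted p = 0.041, limma), with 1 DKO library (89.6) inside the VAV range (41.9 to 116). Against CDK8KO (1.13 ± 0.37) and CDK19KO (0.67 ± 0.37) Klrc1 did not pass, and VAV differed from WT by -0.92 ± 0.39. Of 10 natural killer cell markers, 7 were higher and 3 lower against VAV, and the 1 that passed, Ncr1, was lower (-1.28 ± 0.30, adjusted p = 0.0384, limma).

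The 5 tested genes between C3ar1 and Clec4b2 did not pass in DKO against VAV, and Clec4a4 and Gm5316, which lie there too, were too low to be tested. Necap1, between C3ar1 and Clec4a1, differed by 0.20 ± 0.13 in DKO against VAV, and Clec4a1, Clec4a3, Clec4b1 and Clec4a2 by -0.37, -0.54, 0.06 and 0.05. Foxj2 and Slc2a3, on the far side of C3ar1, differed by -0.36 ± 0.12 and -0.18 ± 0.15. Beyond Clec4b2, the next member, Clec4n, differed by 0.29. The median over the 17 tested neighbours was 0.21, against -0.01 over all genes. It was 0.22 in DKO against CDK8KO, 0.07 in DKO against CDK19KO and -0.26 in VAV against WT.

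**Figure D3:**
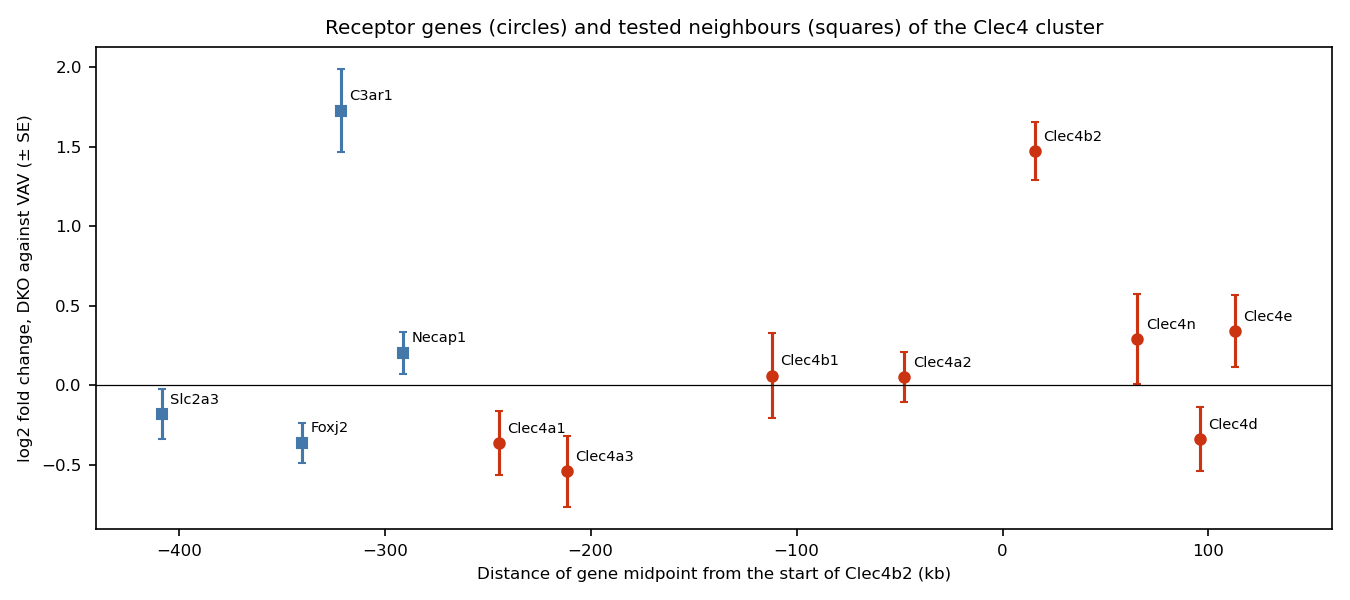
Log2 fold change in DKO against VAV (vertical axis, ± SE) of the 8 receptor genes of the Clec4 run (circles) and of tested neighbours (squares), at the distance of each gene's midpoint from the annotated start of Clec4b2 (horizontal axis, kb). Clec4b2 (1.47) and C3ar1 (1.73) stand above the others, which lie between -0.54 and 0.34.

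Genes through which these receptors signal mostly did not pass the test in DKO. Of 16 adaptors and kinases, 1 passed against VAV, where 1.52% of all genes did: Lat2, for an adaptor of Fc receptor signalling in myeloid and mast cells, was 1.84-fold higher (0.88 ± 0.16, adjusted p = 0.0069, limma), at 576, 484, 711 and 558 normalized counts in DKO against 263, 354, 342 and 301 in VAV. Against CDK8KO (0.59 ± 0.16) and CDK19KO (0.46 ± 0.16) Lat2 did not pass in limma. The other 15, Fcer1g, Syk and Card9 among them, did not pass against VAV. None of the 3 phosphatases of inhibitory receptors passed in limma, edgeR or DESeq2, with 1 at an unadjusted p under 0.05 (Ptpn11, for SHP-2, -0.38 ± 0.16). Of 12 NF-kappaB, AP-1 and NFAT factors, Nfatc2 rose (0.72 ± 0.16, adjusted p = 0.0305) and Fos fell (-1.84 ± 0.36, adjusted p = 0.0117, limma) against VAV. Nfatc2 also passed against CDK8KO (1.07 ± 0.16, adjusted p = 0.00166, limma) but not against CDK19KO (0.63 ± 0.16). Fos did not pass against CDK8KO (-1.22 ± 0.36) or CDK19KO (-1.38 ± 0.36) in limma. Fos gave 299.6, 368, 513 and 585 in DKO and 936 to 3480.0 in VAV, of which VAV 1 was the highest.

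Among cytokine and effector genes that such receptors can induce, 9 of 14 were tested and 1 passed against VAV, where 1.52% of all genes did. Il1b, for interleukin-1 beta, fell by 1.55 ± 0.38 on the log2 scale (adjusted p = 0.0474, limma), with DKO at 441, 385, 291 and 159 and VAV at 489 to 1547. Against CDK8KO (-1.36 ± 0.38) and CDK19KO (-0.73 ± 0.38) Il1b did not pass in limma. Ccl3, for a macrophage chemokine, differed by 0.73 ± 0.28 against VAV without passing, and was higher against CDK8KO (1.28 ± 0.28, adjusted p = 0.0226) and CDK19KO (1.31 ± 0.28, adjusted p = 0.0175, limma). The median log2 fold change of the 9 was -0.27 against VAV. Of 16 myeloid transcription factor genes, 0 passed against VAV in limma or edgeR and 1 in DESeq2, with 3 at an unadjusted p under 0.05, which 15.7% of all genes reached. Stat5b, with the smallest p among them, differed by -0.39 ± 0.11 (adjusted p = 0.089, limma).

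Of 26 other lectin receptor genes of myeloid cells, 20 were tested, and 2 fell and 0 rose in DKO against VAV in limma, where edgeR called 1 and DESeq2 called 2. Over all genes in limma, 0.694% passed as lower and 0.83% as higher. Cd209a, a relative of human DC-SIGN, was 2.83-fold lower (adjusted p = 0.0458), and Cd209d differed by -3.11 ± 0.57 (adjusted p = 0.00722, limma). Cd209a was at 25.7 to 62.9 in DKO and at 113 to 203 in VAV, and Cd209d at 0 to 5.26 against 14.3 to 37.8. Against CDK19KO, 4 of the 20 fell, where 0.658% of all genes did. Among them were Mrc1, the macrophage mannose receptor (-1.23 ± 0.18, adjusted p = 0.000721), and Siglec1 (-0.72 ± 0.17, adjusted p = 0.0377, limma). Clec5a rose (0.84 ± 0.18, adjusted p = 0.0187, limma), as did 1.34% of all genes. Mrc1 was also lower in VAV and CDK8KO than in WT and CDK19KO (means 1593 and 1623 against 2677 and 2853). Clec5a was higher in VAV and CDK8KO than in WT and CDK19KO (means 4306 and 3614 against 2764 and 2380). In DKO against VAV it differed by only 0.02 ± 0.18.

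Markers of cell types were read beside Clec4b2. Of 18 monocyte markers 0 passed in DKO against VAV in limma or edgeR and 1 in DESeq2, with 3 at an unadjusted p under 0.05 (15.7% of all genes), and their summed RPM overlapped (9429 to 13292 in DKO, 8167 to 13552 in VAV). Basophil and mast cell markers summed to 499 to 628 in DKO, against 330.0 to 504 (VAV), 286 to 509 (CDK8KO), 408 to 435 (CDK19KO) and 447 to 543 (WT), so 3 of the 4 DKO libraries were above all others. Of these 9 markers, 3 rose against VAV, where 0.83% of all genes did. They were Fcer1a (1.51 ± 0.21), Mcpt8 (1.19 ± 0.23) and Prss34 (0.98 ± 0.24), with adjusted p-values of 0.000815, 0.0121 and 0.0458 in limma. Eosinophil markers summed to 200 to 880 in DKO, above VAV (92.0 to 161), CDK8KO (72.2 to 139) and WT (148 to 180) and overlapping CDK19KO (147 to 339). Against VAV, 5 of 9 rose (Epx, Prg2, Prg3, Ear6 and Siglecf), where 0.83% of all genes did. Against CDK8KO 5 of the 9 passed as higher, and against CDK19KO 0, with 7 higher and 2 lower (median log2 fold change 0.93). In VAV against WT, 8 of the 9 were lower (median -0.72), with 0 passing in limma. In DKO 1, 2, 3 and 4 Clec4b2 was at 565, 736, 594 and 699.9. In that order the eosinophil sums were 239, 200, 880 and 402. The basophil and mast cell sums were 553, 591, 499 and 628, and those of T cell markers 63.9, 160, 158 and 189. T cell markers were higher in DKO than in VAV for 11 of 11 (median log2 fold change 0.92), of which 1 passed (Cd8a) and 7 had an unadjusted p under 0.05. Their sums were 158 to 189 RPM in 3 DKO libraries and 63.9 in DKO 1, against at most 122 in the other 15 libraries. Megakaryocyte and platelet markers were lower for 10 of 10 (median -1.14), with 0 passing in limma or edgeR, 3 in DESeq2 and 5 at an unadjusted p under 0.05. The part of these cell types in the Clec4b2 result was not tested.

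Markers of other myeloid cells moved down where they passed in DKO against VAV: 3 of 14 macrophage markers (Cd163, Cd5l and Hmox1), 2 of 12 early granulocyte markers (Fcnb and Camp) and 2 of 18 late neutrophil markers (Mmp8 and Fpr1). Over all genes, 0.694% passed as lower there. In VAV against WT, 17 of 18 late neutrophil markers were higher (median log2 fold change 0.34) and 10 of 12 early granulocyte markers (0.37). In DKO against CDK19KO these medians were 0.07 and 0.04, with 0 late neutrophil markers passing as lower and 1 as higher. The 3 macrophage and 2 early granulocyte genes named also passed as lower against CDK8KO and CDK19KO. Macrophage markers summed to 860.1 to 1300.1 RPM in DKO and 913 to 1228 in VAV. No marker of any list was at 0 in every library. Their part in the values of the other 9 receptor genes was not tested. Clec4b2 still passed without the libraries rich in muscle and without those rich in erythroid transcripts, in each of the 3 DKO comparisons and the interaction.

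**Figure D4:**
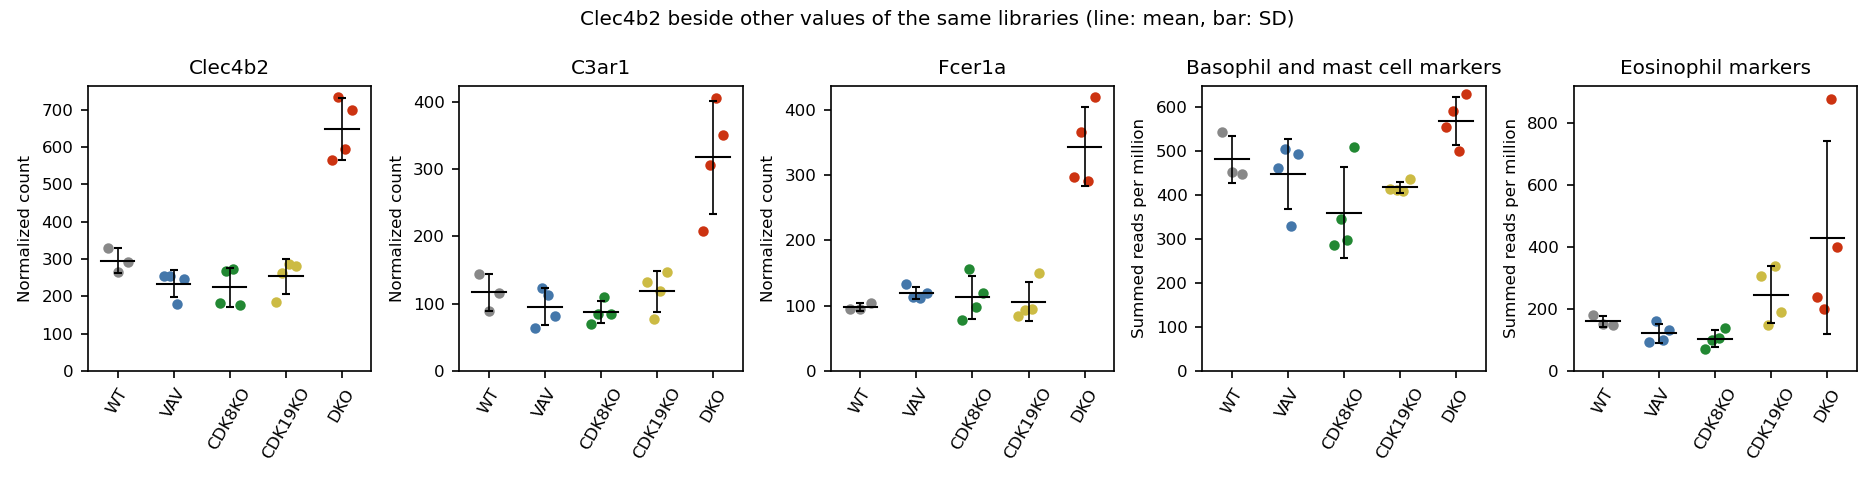
Clec4b2, C3ar1 and Fcer1a (normalized counts) and RPM summed over 9 basophil and mast cell markers and over 9 eosinophil markers, in each library by genotype, with a line for the mean and a bar for the SD; vertical axes start at 0. The 4 DKO libraries lie above all others for the 3 genes, and marker sums in DKO overlap other genotypes, at 499 to 628 and 200 to 880.

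The genes most like each member over the 19 libraries were found by Pearson's r on log2 values, among 11682 other genes with a mean of at least 50. For Clec4b2 these were Fcer1a, for the alpha chain of the high-affinity IgE receptor (r = 0.89), Sh2d1b1, for the adaptor EAT-2 (r = 0.89), and Tbc1d4, for a regulator of vesicle traffic (r = 0.87). All 3 rose in DKO against VAV, by 1.51 ± 0.21, 0.83 ± 0.18 and 1.03 ± 0.14. They were picked for likeness to Clec4b2 over these same libraries, so a rise in DKO was built into the choice and is no separate support. With the genotype means removed, the 3 genes nearest to Clec4b2 were others, Gnpnat1 (r = 0.89), Zfp202 (r = 0.86) and Sft2d1 (r = 0.81). Points in these correlations share genotype, library and depth, and no p is given.

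Among themselves, the pairs with the highest r were Clec4a1 with Clec4a3 (0.91, and 0.90 with genotype means removed) and Clec4a2 with Clec12a (0.87 and 0.84). Clec4b2 had r of -0.16 with its paralogue Clec4b1 and of 0.50 with Clec4e, its highest among members, and 0.61 with Clec12a once genotype means were removed. Clec4a2 was most like Fpr2, for a formyl peptide receptor (0.95), and Clec12a most like Hsd11b1 (0.93). With genotype means removed, Clec4b1 was most like Apoe (0.87), C1qb (0.79) and C1qc (0.75), genes typical of macrophages, Clec7a was most like Stfa2l1 (0.90), and Clec4d most like Il1f9 (0.86) and Nlrp12 (0.84).

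**Figure D5:**
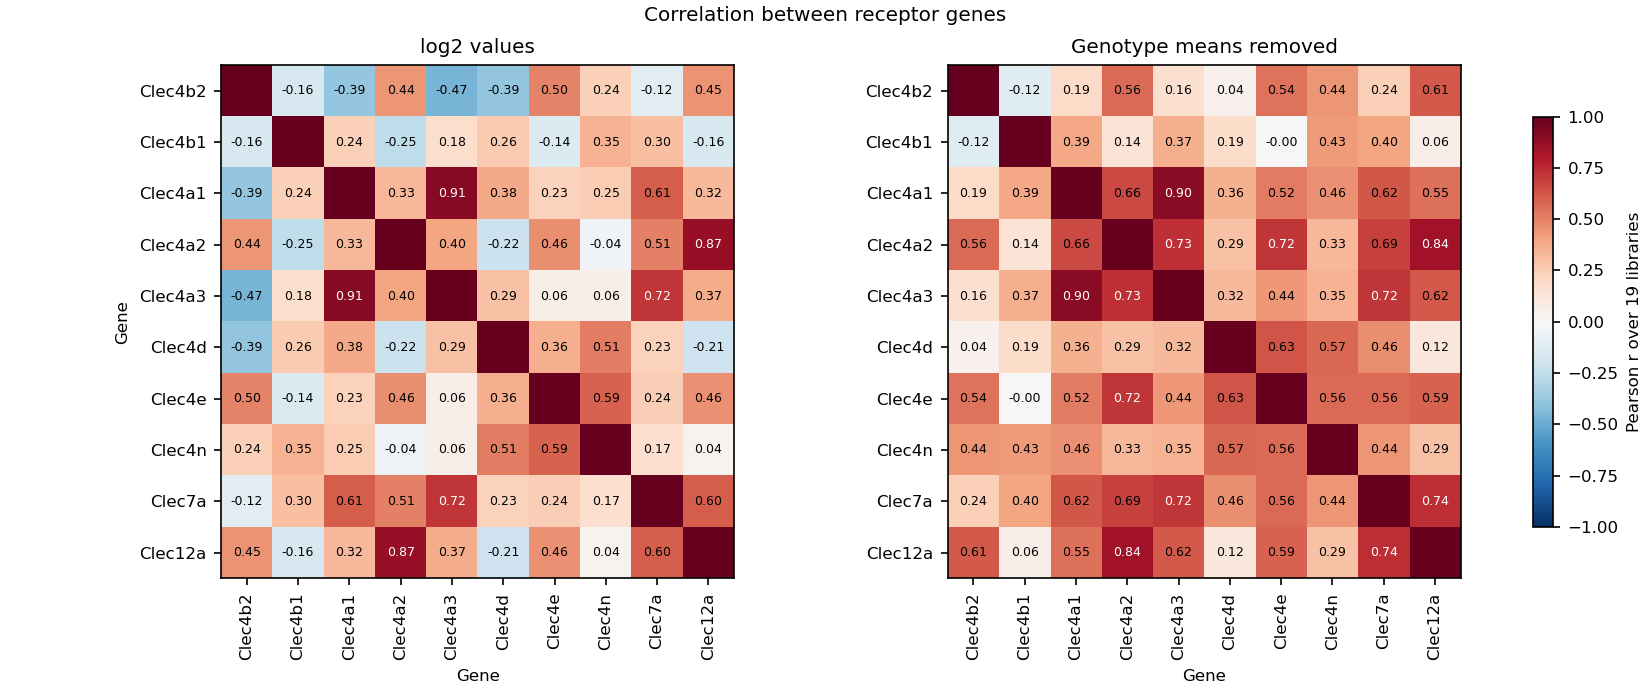
Pearson's r between the 10 receptor genes (rows and columns) over 19 libraries, on log2 values (left) and with the mean of each genotype removed (right); the colour scale runs from -1 to 1. Clec4a1 with Clec4a3 (0.91 and 0.90) and Clec4a2 with Clec12a (0.87 and 0.84) are the pairs of highest r in both panels, and Clec4b2 has no r above 0.61.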

How the data were processed

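Whole marrow of tibiae and femurs was flushed and lysed in Trizol, and poly(A) RNA was sequenced with paired reads, per the labels' protocols. The submitters' processing notes name Salmon 1.4.0, DESeq2 (version not given in the sources used here) and mm10; annotation and filters are not stated. The authors deposited a signal per gene and library, normalized counts, which are gene counts divided by a size factor. All values were whole multiples of the step of their library within 0.001 read, so reads were recovered for the alternatives with edgeR 4.0.16 and DESeq2 1.42.0.

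The main test was limma 3.58.1 (trend) in R 4.3.3 on log2(normalized count + 1), which understates changes of low genes, for genes with a mean of at least 10 over 19 libraries. All 5 genotypes were fitted together, and p was adjusted by Benjamini-Hochberg over 13976 genes. Errors (±) are SD on normalized counts and SE on log2 fold changes. The members, gene lists and comparisons were chosen with earlier results of these data known. All members are named, as are pathway, lectin and transcription factor genes that passed in a DKO comparison (with none, the gene of smallest p), neighbours within 200 kb that passed against VAV, and some of the 3 genes most like each member. Necap1, Foxj2, Slc2a3, Clec4a4, Gm5316 and the marker genes, those that passed against VAV in the lists described, were outside this rule and chosen after their values were seen. The fit was also run on simulated counts, and no outcome of that run is used here. Those counts were drawn independently for each gene and library, so they lack the shared patterns of muscle-rich and erythroid-rich libraries. Alternatives are in the closing section.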

Additional observations from a re-analysis of the deposited data

Results flagged for a closer look

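In 40 groups of 4 libraries, 5 had a library far from the other 3, where chance alone flags about 1 in 20 groups. Clec4b2 in VAV 3 was 179.5, with the other VAV libraries at 248 to 255. Clec12a in VAV 3 was 5905, with the others at 8658 to 9054; VAV 3 was rich in erythroid transcripts. Clec4b1 in DKO 2 was 50.2, with the others at 30.5 to 33.0, and Clec4a2 in DKO 2 was 4457, with the others at 3135 to 3352. Clec4a2 in CDK19KO 3 was 1967, with the others at 2466 to 2517.

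The difference of Clec4b2 with Cdk19 loss was not the same between DKO and CDK8KO, which carry Vav-iCre and the Cdk8 deletion, as between CDK19KO and WT, which carry neither. The gap was 1.78 ± 0.27 on the log2 scale (interaction, adjusted p = 0.00471, limma), and deletion and transgene cannot be told apart in it.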

How the results depend on the processing

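Clec4b2 passed in DKO against VAV in 22 of 22 alternatives (1.13 to 1.54), against CDK8KO in 21 of 21 (1.44 to 1.65), against CDK19KO in 21 of 21 (1.22 to 1.42) and in the interaction in 28 of 28 (1.64 to 1.88). Members passing stayed at 1 to 1 in these comparisons, and at 0 to 0 in the other 3, when each library was left out. In DKO against CDK8KO the count was 2 with DESeq2 (Clec4a3 added). In DKO against CDK19KO it was 2 with DESeq2, with only the compared genotypes in the fit and with array weights (Clec4a2 added each time), and 3 without the 2 libraries rich in erythroid transcripts (Clec4a2 and Clec12a added). In VAV against WT it was 2 without those libraries (Clec4a2 and Clec12a). Leaving out erythroid-rich or muscle-rich libraries was chosen after seeing the data. The cause of these changes was not tested. With the replicate number as a block the counts of members were 1, 1, 1 and 1 in the DKO comparisons and the interaction and 0 in the others. Same-numbered libraries deviated together with r of -0.27 to 0.31 (median 0.01, with 6 of 36 over 0.1). The highest r was between CDK19KO 4 and DKO 4, the muscle-rich libraries. The labels do not say what the number stands for, so a shared batch or pairing cannot be told from these values.

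Counts over all genes moved more: DKO against VAV had 213 in limma, 504 in DESeq2, 99 with only the compared genotypes, 107 without DKO 3, 385 without the erythroid-rich and 102 without the muscle-rich libraries. DKO against CDK8KO had 238, 711 in DESeq2, 31 with only the compared genotypes and 92 without the muscle-rich libraries. DKO against CDK19KO had 279, 601 in DESeq2, 968 with only the compared genotypes, 1251 with array weights, 880 without the erythroid-rich and 97 without the muscle-rich libraries. The interaction had 21, 98 in DESeq2 and 10 without WT 3. VAV against WT had 13, 321 in DESeq2 and 1060 without the erythroid-rich libraries. Basophil and mast cell markers passing against VAV were 3 in limma, 2 in edgeR and 7 in DESeq2. Late neutrophil markers were 2, 1 and 4, early granulocyte markers 2, 2 and 4, macrophage markers 3, 3 and 5, T cell markers 1, 1 and 3, other lectin receptors 2, 1 and 2, and cytokine genes 1, 1 and 2. Of 1687 alternative values of member changes and counts, 15 member changes moved by more than the spread between libraries, all but 1 of them with WT and VAV exchanged as the control, and 0 members past the threshold changed sign. With WT as the control of DKO, Clec4e (-0.06), Clec4n (-0.34) and Clec7a (0.27), none past the threshold, took the other sign. Low counts limit Clec4b1 (22 to 62 reads a library) and Clec4n (38 to 95).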
